A study of Danio rerio with 4 samples.

Results

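The genes described here are 5 genes of the Notch pathway in zebrafish, dll4, LFNG, her15.1, her12 and HEY2, out of 32434 gene rows in the count table. They comprise a ligand, a modifier of the receptor and 3 hairy-related transcription factor genes. The rows were found by Ensembl identifier for dll4 (ENSDARG00000070425), LFNG (ENSDARG00000037879) and her15.1 (ENSDARG00000054562), and by symbol for her12 (ENSDARG00000032963) and HEY2 (ENSDARG00000013441). The set was chosen by the counts of these same libraries, in ventral against dorsal cells and relative to the endothelial genes she, plvapb and tek. Differences of the 5 genes between the sides are therefore given as descriptions, without a test.

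The groups were ventral endothelial cells (2 libraries) and dorsal endothelial cells (2 libraries) of the posterior cardinal vein, the large vein of the embryo's trunk. All embryos were of the strain Tg(fli1:gal4;uasKaede), in which the endothelial promoter fli1 drives the activator Gal4 and, through it, the protein Kaede. They were studied at 24 hours post fertilization. Light turned Kaede from green to red in the ventral or the dorsal part of the vein, and red cells of 6 embryos per group were sorted. Whether the libraries of a side came from separate pools of embryos is not labelled, so p-values here reflect no more than the variation among these libraries, part of which may be technical.

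In Notch signalling a ligand on a cell binds a Notch receptor on its neighbour, proteases release the receptor's inner part, and this part switches on target genes with the DNA-binding protein RBPJ. The ligands belong to the Delta and Jagged families, and Fringe enzymes such as Lfng add sugars to the receptor that change which ligands it answers to. Many targets are hairy-related genes of the her, hes and hey families, whose products repress transcription. In the vessels of zebrafish embryos Notch is known for promoting arterial over venous identity and for restraining sprouting.

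Ventral libraries 1 and 2 held 108405 and 79527 gene counts, against 115876 and 51376 for dorsal libraries 1 and 2, so values from dorsal library 2 are the least precise. Ventral library 1 stood apart in epidermal markers, of which the 14 matched genes summed to 375 counts there and 86 in ventral library 2, against 57 and 35 in the dorsal libraries. The keratin genes krt4, krt17 and cyt1l, with 58, 25 and 65 counts, were seen in ventral library 1 alone. Endothelial markers were themselves sparse, with 178 and 136 ventral and 106 and 61 dorsal counts over 20 matched genes, 4 of which had no count. TAL1, which blood cells also use, gave 44 and 31 of the ventral and 63 and 34 of the dorsal counts, and without it the list held 134 and 105 ventral and 43 and 27 dorsal counts. The defining endothelial gene cdh5, encoding VE-cadherin, had 2 and 1 ventral and 4 and 0 dorsal counts. Other markers of the list stood higher in ventral libraries. For etsrp these were 17 and 15 ventral and 6 and 3 dorsal counts, and for DUSP5 23 and 11 ventral and 4 and 4 dorsal. Of the 5 tested genes of the list 4 had a log2 fold above 0 and 1, TAL1, below, and 0 passed in edgeR. The 4 include she and plvapb, by which the set was chosen, so nothing is read from this count. Erythroid genes summed to 6886 and 6581 counts in the ventral libraries, against 7209 and 6239 counts in the dorsal libraries. In CPM this was 63521 and 82752 in the ventral libraries, against 62213 and 121438 in the dorsal libraries. Most globin rows lay close to the highest count found in the table, so the counts may be capped. The higher CPM of dorsal library 2 therefore cannot be read as more erythroid RNA. Of the 12 tested erythroid genes 11 had a log2 fold below 0 and 0 passed in edgeR, while 46.1% of all genes tested lay above 0. The folds of globin rows may reflect a cap, so nothing is read from this count. SPTB stood at -0.61 and klf1 at -0.59, both with ventral libraries below dorsal ones, as for 19.5% of all genes tested. Of the 12 tested erythroid genes 1 had both ventral libraries above both dorsal ones, as for 19.4% of all genes tested. No direction of erythroid RNA is read from these genes. The part of these markers in the results was not tested. In such pooled libraries fewer endothelial cells and less RNA per endothelial cell cannot be told apart.

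The ligand gene dll4, which encodes the Delta-like ligand of endothelial cells, gave 56 and 24 counts in the ventral libraries, against 18 and 4 counts in the dorsal libraries. Scaled to library depth these were 517 and 302 CPM (counts per 1000000 gene counts) in ventral libraries, against 155 and 77.9 CPM in dorsal ones. The groups did not overlap, and library 1 was the higher on each side. Means were 409 ± 152 CPM in ventral and 117 ± 54.8 CPM in dorsal libraries (SD, n = 2 each). The fitted log2 fold change in edgeR was 1.72 ± 0.41 (SE), a fold of 3.29 with an interval of 1.87 to 5.79 (2 SE). Without ventral library 1 the log2 fold stood at 1.27.

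LFNG, which encodes the Fringe glycosyltransferase that modifies Notch receptors, gave 28 and 22 counts in the ventral libraries, against 1 and 4 counts in the dorsal libraries. The levels were 258 and 277 CPM in ventral libraries, against 8.63 and 77.9 CPM in dorsal ones. The ventral libraries were alike, while the dorsal ones lay far apart on 5 counts in all. The log2 fold was 3.07 ± 0.68 (SE), the second highest of the 1399 genes tested. LFNG was chosen by this contrast and passed the expression filter through its ventral libraries alone, so nothing is read from this place. The ratio of summed counts was 9.07, with an interval of 3.64 to 29.1 that covers counting error only. The log2 fold depended on the dorsal library used, at 1.63 without dorsal library 1 and 4.88 without dorsal library 2, and without ventral library 1 it was 3.08.

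The hairy-related gene her15.1, a Notch target of the same type as mammalian Hes5, gave 56 and 19 counts in the ventral libraries, against 24 and 3 counts in the dorsal libraries. This was 517 and 239 CPM in ventral libraries, against 207 and 58.4 CPM in dorsal ones. The groups did not overlap, but the lower ventral library stood only just above the higher dorsal one. The log2 fold was 1.37 ± 0.49 (SE), and it was 0.69 without ventral library 1 and 2.57 without dorsal library 1. Scaled to the endothelial genes she, plvapb and tek, it turned to -0.11, while the median of all genes tested stood at -1.47.

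The related gene her12 had similar CPM within each side, although on few counts. It gave 24 and 18 counts in the ventral libraries, against 6 and 3 counts in the dorsal libraries. In CPM the levels were 224 ± 3.5 in ventral and 55.1 ± 4.68 in dorsal libraries (SD, n = 2 each), and the groups did not overlap. Intervals for counting error alone were far wider than these SDs. They were 142 to 329 and 134 to 358 CPM in ventral libraries, against 19.0 to 113 and 12.0 to 171 CPM in dorsal ones. The small SDs of her12 therefore cannot be read as precision. The log2 fold was 2.04 ± 0.48 (SE), and 2.05 without ventral library 1. Like LFNG, her12 was chosen by this contrast and passed the expression filter through its ventral libraries alone, so nothing is read from this fold.

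HEY2, whose zebrafish form is known as gridlock and acts in the making of the aorta, gave 7 and 1 counts in the ventral libraries, against 3 and 1 counts in the dorsal libraries. The levels of 64.6 and 12.6 CPM in ventral libraries lay above and below those of 25.9 and 19.5 CPM in dorsal libraries. The ratio of summed counts was 1.81 with a counting interval of 0.486 to 8.23, and no direction was detectable at this depth. HEY2 was the only one of the 5 genes below edgeR's expression filter.

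Of the 5 genes, 4 had both ventral libraries above both dorsal libraries. This also held for 19.4% of the 1399 genes tested, and the reverse for 19.5%. At an adjusted p of 0.05 in edgeR's quasi-likelihood test, 0.429% of the genes tested were higher and 0% lower in ventral cells. The genes were chosen by this contrast, so nothing is read from the difference between their count and these shares. The median log2 fold over all genes tested was -0.03.

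**Figure D1:**
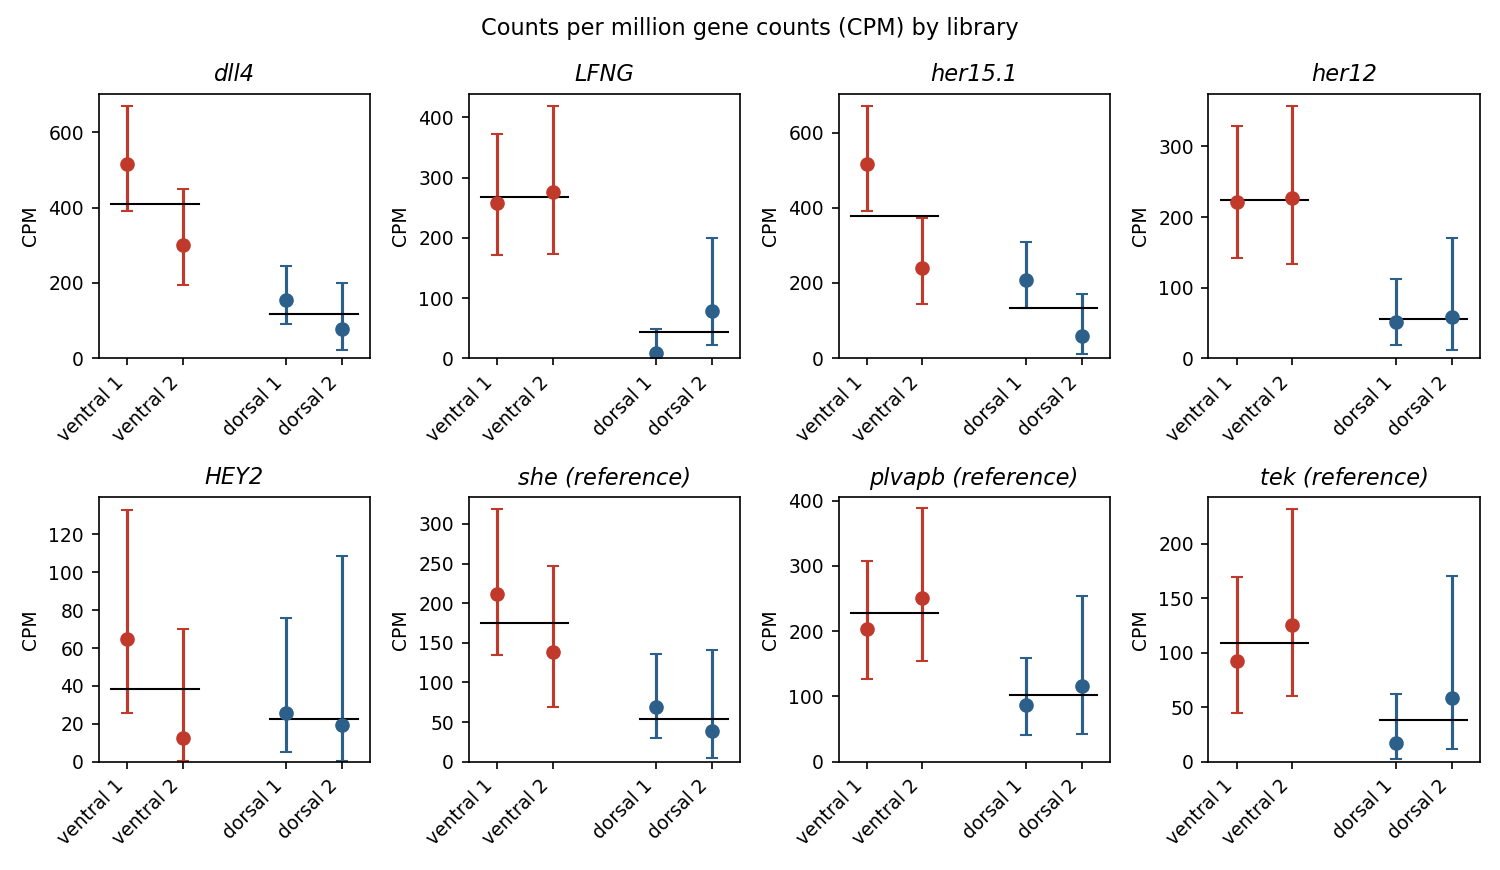
CPM in each of the 4 libraries for the 5 Notch genes and the 3 endothelial reference genes, with ventral libraries in red and dorsal libraries in blue. Points are libraries, bars are exact 95% Poisson intervals that cover counting error only, and lines are group means; all genes but HEY2 have both ventral points above both dorsal points.

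The endothelial genes she, an adaptor, plvapb, a component of endothelial pore diaphragms, and tek, the receptor Tie2, stood higher in the ventral libraries as well. Together they gave 55 and 41 counts in the ventral libraries, against 20 and 11 counts in the dorsal libraries, or 507 and 516 CPM in the ventral libraries, against 173 and 214 CPM in the dorsal libraries. Their sum was thus close to even within each side. The 5 genes were next expressed as counts per 100 summed counts of these 3 genes, which does not depend on library scaling. On such a scale a typical gene lies well below equality, since scaling all genes tested to these 3 put their median log2 fold at -1.47.

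On this scale dll4 overlapped between the sides. It stood at 102 and 58.5 per 100 reference counts in the ventral libraries, against 90 and 36.4 in the dorsal libraries. The summed ratio was 1.17-fold that of dorsal cells, with a counting interval of 0.604 to 2.31. Within a side, dll4 differed more between libraries than the sums differed between sides. her15.1 stood at 102 and 46.3 in the ventral libraries, against 120 and 27.3 in the dorsal libraries, with a ratio of 0.897 (0.473 to 1.71). HEY2 stood at 12.7 and 2.44 in the ventral libraries, against 15 and 9.09 in the dorsal libraries, with a ratio of 0.646 (0.16 to 3.14). For these 3 genes ventral and dorsal libraries overlapped. Against all 20 endothelial markers, TAL1 included, dll4 had both ventral libraries above both dorsal ones, at 31.5 and 17.6 per 100 in ventral libraries, against 17 and 6.56 in dorsal ones, a ratio of 1.93 (1.14 to 3.38). Without TAL1 in that list the libraries overlapped again, with a ratio of 1.07 (0.605 to 1.93).

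LFNG and her12 stayed apart on the same scale, which was also used to choose the genes. The share of all genes tested that stay apart on it was not computed, so nothing is read from the separation. LFNG stood at 50.9 and 53.7 per 100 reference counts in the ventral libraries, against 5 and 36.4 in the dorsal libraries. The summed ratio was 3.23 with a counting interval of 1.14 to 11.2. Without dorsal library 1, in which LFNG had a single count, its log2 difference was 0.52, against 1.69 with all libraries. her12 stood at 43.6 and 43.9 in the ventral libraries, against 30 and 27.3 in the dorsal libraries. Its ratio was 1.51, and the interval of 0.628 to 3.92 includes equality. The 31 dorsal reference counts limit all of these ratios.

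**Figure D2:**
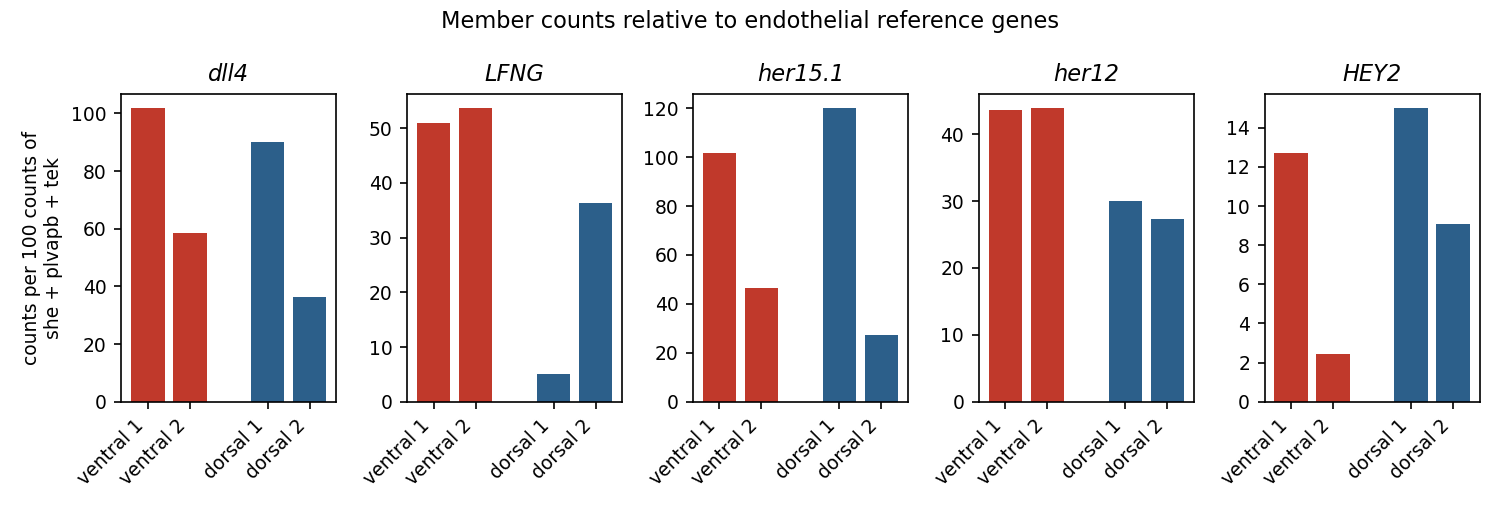
Counts of each of the 5 genes per 100 summed counts of she, plvapb and tek in the same library, with ventral libraries in red and dorsal libraries in blue. Ventral bars exceed both dorsal bars for LFNG and her12, while the bars of dll4, her15.1 and HEY2 overlap between the sides.

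Ratios between the genes themselves, taken within each library, need no scaling either. The counts of dll4 and her15.1 were close, with 1 and 1.26 dll4 counts per her15.1 count in the ventral libraries, against 0.75 and 1.33 in the dorsal libraries. The summed ratio was 1.31-fold that of dorsal cells, with a counting interval of 0.654 to 2.64. Dorsal library 2 had only 4 dll4 and 3 her15.1 counts. Both genes were chosen by the same contrast, so nothing is read from their likeness. LFNG did not follow dll4 and her15.1. Per her15.1 count there were 0.5 and 1.16 LFNG counts in the ventral libraries, against 0.0417 and 1.33 in the dorsal libraries. The low value again belonged to dorsal library 1, and the sides overlapped.

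The genes also differed in how evenly they were counted within a side. dll4, her15.1 and HEY2 had more CPM in library 1 than in library 2 of both sides, and library 1 was the deeper library each time. For her15.1 the ratio of library 1 to library 2 was 2.16 (counting interval 1.27 to 3.85) in ventral and 3.55 (1.08 to 18.4) in dorsal cells. For dll4 it was 1.71 (1.04 to 2.89) in ventral and 2.0 (0.657 to 8.1) in dorsal cells. For HEY2 it was 5.14 (0.66 to 231) in ventral and 1.33 (0.107 to 69.8) in dorsal cells, within counting error on both sides. For her12 it was 0.978 (0.509 to 1.91) in ventral and 0.887 (0.189 to 5.48) in dorsal cells. LFNG was even between the ventral libraries, at 0.934 (0.515 to 1.71), and uneven in the other direction between the dorsal ones, at 0.111 (0.00225 to 1.12). The replicate numbers only name the libraries, and whether libraries pair across the sides is not labelled.

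The copy next to her15.1 gave nearly the same values. her15.2 lies directly beside her15.1 in the RefSeq table of the assembly GRCz12tu, with her2 on the other side. It gave 48 and 20 counts in the ventral libraries, against 19 and 3 counts in the dorsal libraries, which is 1.17 and 0.95 counts of her15.1 per count of her15.2 in ventral libraries, against 1.26 and 1 in dorsal ones. Such copies can share reads, and the table lists none as multiply aligned, so how they were assigned cannot be traced and single values for her15.1 and her15.2 are uncertain.

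Other genes of the pathway came from lists of ligands, receptors, modifiers and proteases, nuclear partners, inhibitors and hairy-related genes, with 61 matched genes besides the 5. Of these, 18 had no count and 6 were expressed highly enough to be tested. In edgeR's test over all genes 0 of the 6 passed in either direction, and DESeq2 called 0 as well. At an unadjusted p under 0.05, 3 of the 6 were higher in ventral cells in both tools, as were 105 of all 1399 genes in edgeR and 51 in DESeq2. By the same measure adam10a was lower in edgeR, at an unadjusted p of 0.0367, as were 65 of all genes. The median log2 fold of the 6 genes was 1.17, against -0.03 for all genes tested. Only genes that passed the expression filter enter it, and the lists were written with earlier results of these data known. Nothing is therefore read from the difference between these medians. Both ventral libraries lay above both dorsal ones for 3 of the 6, as for 19.4% of all genes tested. Among these 3 was her15.2, which may share reads with her15.1.

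Among ligands, the Delta gene DLD gave 19 and 16 counts in the ventral libraries, against 22 and 4 counts in the dorsal libraries. Its log2 fold was 0.34 ± 0.43 (SE), with an adjusted p of 0.879 in edgeR. Relative to the 3 endothelial genes it stood at 34.5 and 39 per 100 in the ventral libraries, against 110 and 36.4 in the dorsal libraries. The libraries overlapped, with a summed ratio of 0.435 (0.216 to 0.879). The log2 difference of -1.20 lay above the median of all genes tested under that scaling, -1.47. The ligand genes dlc, with 7 ventral and 2 dorsal counts, and jag1b, with 7 and 1, were too sparse for a direction, at ratios of 3.17 (0.604 to 31.3) and 6.35 (0.816 to 286). dlb, jag2b and the DLL1 row ENSDARG00000010791 had 1 or 2 counts in all, and jag1a, jag2a and the DLL1 row ENSDARG00000020219 had none. A count of 0 over all libraries allows up to 8.45 CPM.

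The receptor genes were counted rarely. NOTCH3 gave 7 and 4 counts in the ventral libraries, against 6 and 2 counts in the dorsal libraries, a ratio of 1.25 (0.457 to 3.57). For NOTCH1 the 6 ventral counts and 1 dorsal count gave a ratio of 5.44 (0.66 to 250.3), and notch2 gave 1 count in all. Neither the receptors nor the DNA-binding partner RBPJ (ENSDARG00000003398), with 11 ventral and 3 dorsal counts and a ratio of 3.33 (0.879 to 18.6), showed a direction beyond counting error.

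The protease gene adam10a, whose mammalian relative makes the first cut in a Notch receptor once it has bound its ligand, was the single tested pathway gene with a log2 fold below 0. It gave 23 and 18 counts in the ventral libraries, against 45 and 17 counts in the dorsal libraries, or 212 and 226 CPM in ventral libraries, against 388 and 331 CPM in dorsal ones. Both ventral libraries lay below both dorsal ones, and the log2 fold of -0.73 ± 0.30 (SE) did not pass over all genes (adjusted p = 0.354, edgeR). Relative to the 3 endothelial genes it stood at 41.8 and 43.9 per 100 in the ventral libraries, against 225 and 155 in the dorsal libraries, a ratio of 0.214 (0.117 to 0.39). The presenilin complex genes PSEN2, APH1B and PSENEN gave 7, 10 and 7 ventral and 3, 6 and 4 dorsal counts. The corepressor genes NCOR1, at 15 ventral and 12 dorsal counts, and SPEN, at 15 and 15 (ENSDARG00000074332) and 7 and 5 (ENSDARG00000074245), had depth-scaled ratios between 0.907 and 1.27. Relative to the 3 endothelial genes NCOR1 had a ratio of 0.404 (0.158 to 1.06) and SPEN (ENSDARG00000074332) 0.323 (0.131 to 0.803). Both had ventral libraries below dorsal ones on that scale, where the median log2 fold of all genes tested was -1.47. The share of all genes tested that do so was not computed, so nothing is read from it.

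NRARP (ENSDARG00000091419), which encodes an inhibitor that Notch itself induces, gave 46 and 25 counts in the ventral libraries, against 11 and 10 counts in the dorsal libraries. The levels were 424 and 314 CPM in ventral libraries, against 94.9 and 195 CPM in dorsal ones, without overlap. Its log2 fold of 1.49 ± 0.43 (SE) did not pass over all genes (adjusted p = 0.175, edgeR). Relative to the endothelial genes it stood at 83.6 and 61 per 100 in the ventral libraries, against 55 and 90.9 in the dorsal libraries, which overlap.

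Of the 21 matched hairy-related genes, 9 had no count, and her2, HES1, her15.1, her15.2 and her12 held 88.5% and 90.2% of the hairy-related counts in the ventral libraries, against 88% and 80.6% in the dorsal ones. HES1, a widely used Notch effector in mammals, gave 65 and 29 counts in the ventral libraries, against 29 and 9 counts in the dorsal libraries. Its log2 fold of 1.15 ± 0.33 (SE) had an adjusted p of 0.175 in edgeR, and that of her15.2, 1.5 ± 0.45, an adjusted p of 0.194. Both genes had non-overlapping sides. her2 gave 85 and 15 counts in the ventral libraries, against 32 and 7 counts in the dorsal libraries, and its levels of 784 and 189 CPM in ventral libraries lay on both sides of the higher dorsal value of 276 CPM. Its log2 fold of 1.19 ± 0.56 (adjusted p = 0.455) turned to -0.20 without ventral library 1. Per 100 endothelial reference counts all 3 overlapped between the sides, with summed ratios of 0.799 (0.441 to 1.44) for HES1, 0.998 (0.51 to 1.98) for her15.2 and 0.828 (0.46 to 1.48) for her2.

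The log2 folds of NRARP, HES1, her2 and her15.2 depended on single libraries. Without ventral library 2 they were 1.72, 1.49, 1.88 and 1.87 in that order. Without ventral library 1 they were 1.23, 0.73, -0.20 and 1.03. That of NRARP was 2.09 without dorsal library 2 and 0.81 without dorsal library 1. A group with 1 library left is assumed to vary like the other. Scaling to she, plvapb and tek in place of TMM moved the median of all genes tested to -1.47, and 1060 of the 1399 genes were then called lower, DLD and adam10a among them. By that scaling's construction the log2 folds of HES1, her2, DLD and the arterial genes EFNB2 and CLDN5 also shifted below 0, to -0.30, -0.27, -1.11, -0.11 and -0.08. These 5 values lay above the median of all genes, as did NRARP at 0.06 and her15.2 at 0.04, and adam10a at -2.16 lay below it.

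**Figure D3:**
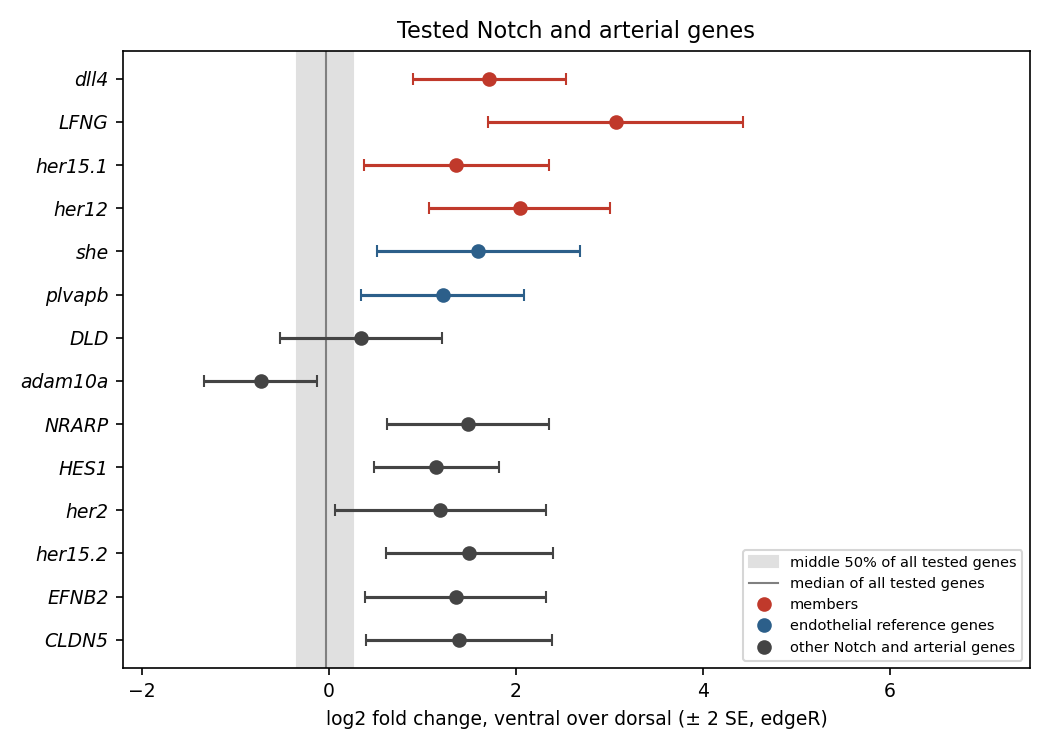
Log2 fold changes, ventral over dorsal, with 2 SE from edgeR for the 4 tested genes of the described set (red), the 2 tested endothelial reference genes (blue) and the other tested Notch and arterial genes (grey). The grey band holds the middle 50% of all 1399 genes tested, from -0.34 to 0.26; of the genes shown adam10a alone lies below 0.

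Within the hairy-related counts of a library, her12 took 7.64% and 16.1% in the ventral libraries, against 4.8% and 9.68% in the dorsal ones. The exact 95% intervals, which cover counting error only, were 4.96% to 11.2% and 9.81% to 24.2% in ventral libraries, against 1.78% to 10.2% and 2.04% to 25.8% in dorsal ones. The share of her15.1 was 17.8% and 17% in ventral libraries, against 19.2% and 9.68% in dorsal ones, with overlapping intervals. The share of her2 differed between libraries of the same side, at 27.1% and 13.4% in ventral libraries, against 25.6% and 22.6% in dorsal ones. HEY2 took 2.23% and 0.893% in ventral libraries, against 2.4% and 3.23% in dorsal ones. Its relative HEY1 took 2.87% and 2.68% in ventral libraries, against 4.8% and 16.1% in dorsal ones. Its levels overlapped, at 83 and 37.7 CPM in ventral libraries, against 51.8 and 97.3 CPM in dorsal ones, with a ratio of summed counts of 0.99 (0.4 to 2.47). Per 100 endothelial reference counts HEY1 stood at 16.4 and 7.32 in the ventral libraries, against 30 and 45.5 in the dorsal libraries. These did not overlap, with a summed ratio of 0.352 (0.129 to 0.985). The share of all genes tested that stay apart on this scale was not computed, so nothing is read from the separation of HEY1. The log2 difference of -1.51 lay near the median of all genes tested under that scaling, -1.47.

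**Figure D4:**
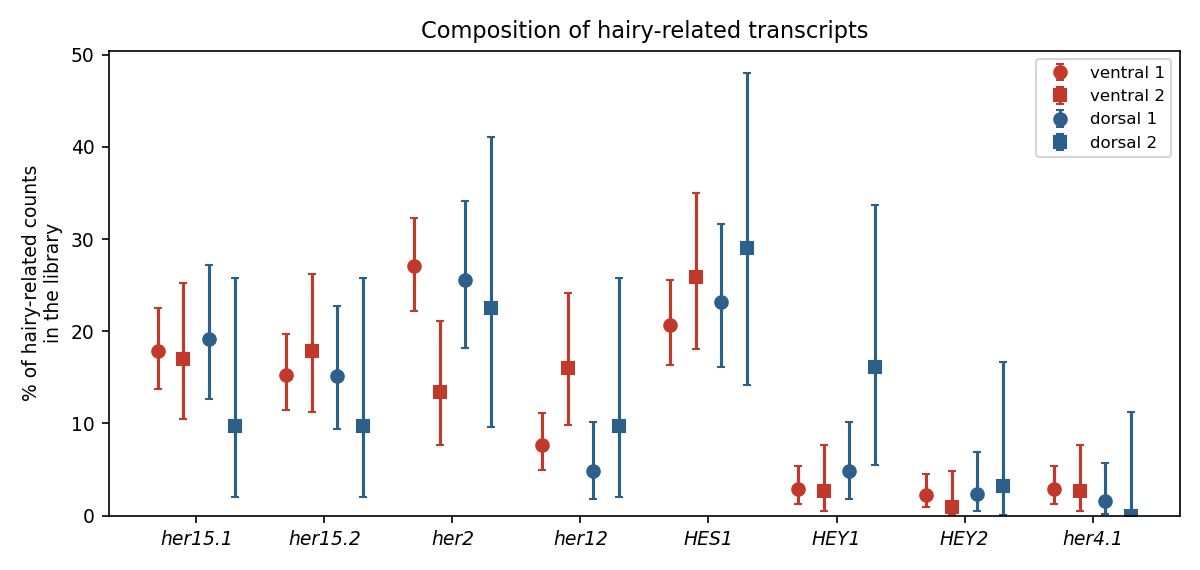
Share of each hairy-related gene in the hairy-related counts of its library, in percent, for genes with at least 10 counts in all; ventral libraries are red, dorsal libraries blue, circles library 1 and squares library 2. Bars are exact 95% binomial intervals for counting error. For each gene shown but HEY1, every ventral interval overlaps every dorsal one. The HEY1 interval in ventral library 1 ends just below that in dorsal library 2. Within the ventral side the her2 intervals do not overlap, at 22.2% to 32.3% in library 1 and 7.69% to 21.1% in library 2.

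her4.1, which lies in the same cluster as her12 in the RefSeq table, gave 9 and 3 counts in the ventral libraries, against 2 and 0 counts in the dorsal libraries, a ratio of 5.44 (1.21 to 50.1). The her4 copies are near one another, with her4.2 directly next to her12, and their single values carry the same uncertainty as her15.1.

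Arterial genes, which Notch is known to promote, had 2 tested members out of 17 matched. EFNB2 (ENSDARG00000020164), a membrane ligand that marks arteries, gave 64 and 17 counts in the ventral libraries, against 22 and 6 counts in the dorsal libraries. Its log2 fold was 1.36 ± 0.48 (SE), with an adjusted p of 0.302 in edgeR. The tight junction gene CLDN5 (ENSDARG00000014059) gave 32 and 12 counts in the ventral libraries, against 12 and 3 counts in the dorsal libraries, with a log2 fold of 1.39 ± 0.50 (adjusted p = 0.302). Neither passed with all libraries. Without ventral library 2 both log2 folds were higher than with all libraries. Without ventral library 1 the log2 fold of EFNB2 was 0.42 and that of CLDN5 0.81. Each of these fits leaves a single ventral library, without replication on that side, so no test is read from them. The library left without ventral library 2 is the one that stood apart in epidermal markers. Per 100 endothelial reference counts EFNB2 stood at 116 and 41.5 in the ventral libraries, against 110 and 54.5 in the dorsal libraries, and CLDN5 at 58.2 and 29.3 in the ventral libraries, against 60 and 27.3 in the dorsal libraries. Both overlapped. SOX7, with 20 ventral and 8 dorsal counts, flt1 with 8 and 5, the CXCR4 row ENSDARG00000057633 with 8 and 5, and the second CLDN5 row (ENSDARG00000043716) with 10 and 3 had counting intervals that include equality.

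The genes most like each member were found by the distance between log2 CPM values centred over the 4 libraries, among all tested genes. Nearest to dll4 were the keratin gene krt18a.1, also in the epidermal list, at a distance of 0.263, her15.2 at 0.288 and she at 0.357, with a median of 1.87 over all tested genes. Nearest to her15.1 were her15.2 at 0.301, the transcription factor gene KLF6 at 0.305 and the cytoskeletal linker gene macf1a at 0.371. Nearest to LFNG were stab2, a scavenger receptor gene of veins and lymphatics, at 0.37, the kinase gene PLK2 at 0.547 and the tetraspanin gene CD81 at 0.71. Nearest to her12 were IRF2BP2 at 0.256, the AP-1 gene JUNB at 0.284 and the adhesion gene MCAM at 0.317. Among the members, dll4 and her15.1 were closest, at 0.558, and LFNG and her15.1 farthest apart, at 2.56. With 4 libraries such distances describe these samples only.

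Delta, Fringe and hairy-related genes are also active in somites and neural tissue. Of 15 matched somite and tail bud genes 12 had no count, and the list gave 0 and 2 counts in the ventral libraries, against 1 and 0 counts in the dorsal libraries. Of 15 neural genes 10 had no count, neurog1 among them, and the list gave 16 and 12 ventral and 18 and 6 dorsal counts. Most of these counts were of the tubulin gene tubb5. ELAVL3 gave 0 and 4 ventral and 3 and 0 dorsal counts, sox19b gave 4 in all, and SOX2 and ascl1a 1 each. Epidermal markers were also higher on the ventral side, at 3459 and 1081 CPM in the ventral libraries, against 492 and 681 CPM in the dorsal libraries, for the 14 matched genes. Their part in the results was not tested; without ventral library 1 the log2 folds were 1.27 for dll4, 3.08 for LFNG, 0.69 for her15.1 and 2.05 for her12.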

How the data were processed

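RNA was extracted with ERCC spike-ins and libraries were made with CEL-Seq, which tags transcript 3' ends, per the labels' protocols; each primer carried a molecular identifier. The submitters' processing notes name CASAVA 1.8, Bowtie2 2.1.0, HTSeq 0.5.4p3 and build Zv9, but neither their roles nor their order. Values in the deposited table are whole-number counts by gene; whether of reads or of identifiers is not stated. No gene exceeds 1024, so the counts may be capped; the highest count of the 5 genes is 56. The 5 rows naming no gene (96.4% to 97.4% of the column totals) and the 92 ERCC rows were left out of library sizes. How strand was handled is not stated.

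Symbols came from an Ensembl identifier table (20769 of 32434 genes). edgeR 4.0.16 (quasi-likelihood F test, TMM, filterByExpr) in R 4.3.3 tested ventral against dorsal over the 1399 genes kept, with Benjamini-Hochberg adjustment and a threshold of 0.05; DESeq2 1.42.0 was an alternative. The script was checked on simulated data. CPM is per 1000000 gene counts without TMM. Ratios of summed counts use TMM-scaled depth and exact conditional 95% intervals for counting error, and the fold of HEY2 is such a ratio. Amplified molecules are not fully independent, so these intervals cover counting error only. Counts of 0 were read against a floor of 3 counts. An exact permutation test over 4 libraries cannot go below 0.333 and was not used. Members and lists were chosen with earlier results of these data known. Named genes were the members, the 3 reference genes, ligands and receptors, other Notch and arterial list genes with at least 10 counts, and the 3 genes nearest each tested member; 1 gene that this rule names is not reported here. No sequences are shown.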

Additional observations from a re-analysis of the deposited data

How the results depend on the processing

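With all libraries 6 genes passed over all genes and 0 other pathway genes did. The count over all genes was 14 with library size alone, 0 with ERCC scaling, 1065 with scaling to she, plvapb and tek (1060 of them lower), 47 without an expression filter, 0 with DESeq2, and 21 to 101 with 1 library left out. The pathway count was 2 with scaling to the 3 genes (DLD and adam10a, lower) and 0 to 4 with 1 library left out. That scaling moves the median log2 fold of all genes to -1.47, ERCC scaling to 0.22 and no filter to 0.12. The counts are not out of the same number of genes. Genes tested were 12123 without a filter and 1508 to 2132 with 1 library left out, against 1399 in the other settings. Pathway genes tested were 43 without a filter, 8 without ventral library 2 and 6 in the other settings. A fit with 1 library left out has no replicate on that side, so nothing is read from its counts.

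Scaled to the 3 genes, log2 folds were 0.26 for dll4, 1.62 for LFNG and 0.59 for her12, and turned to -0.11 for her15.1 and -0.63 for HEY2. With ERCC scaling her12 stood at 2.33. With 1 library left out LFNG ranged from 1.63 to 4.88, her15.1 from 0.69 to 2.57, her12 from 1.79 to 2.21 and HEY2 from -0.91 to 1.46.

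Log2 ratios to the reference genes, with 1 library left out, ranged from -0.28 to 1.2 for dll4, 0.52 to 3.38 for LFNG, -0.91 to 1.52 for her15.1, 0.54 to 0.68 for her12 and -2.40 to -0.0198 for HEY2. Against all endothelial markers of the list, TAL1 included, they were 0.95 for dll4, 0.56 for her15.1, 1.31 for her12 and 0.0891 for HEY2. her12 stood at 0.66 without she, 0.37 without plvapb, 0.67 without tek and 0.45 against all endothelial markers without TAL1, a reference added after the data were seen. The other 37 folds and 28 ratios recomputed kept their sign and moved by less than the spread between replicates. HEY2 has no DESeq2 value, being below the filter. The cause of these shifts was not tested. No paired analysis was run, because no label states whether a ventral and a dorsal library form a pair. The sample numbers in the titles are consecutive for library 1 of each side, and again for library 2.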
